A study of Durio zibethinus with 9 samples.

Results

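A group of 5 genes named ethylene-responsive transcription factor was followed across 3 stages of durian pulp, out of 50 genes given that name in the tables of the study read here, which may not hold every ERF gene it counted, and 39453 genes that any library listed. Of these 5, LOC111280307, LOC111292116 and LOC111290490 were selected on their high values in young pulp, and LOC111306880 and LOC111314102 on their higher values in mature than in young pulp. The values of the young stage and every difference from it therefore chose the genes and are given as a description with no test. No numerical threshold went with the choice. Values of the ripening stage were not used to choose them, and the step from the mature to the ripening stage is the comparison that was tested. MS values entered the choice of LOC111306880 and LOC111314102 directly, and through the step from YS to MS they may have entered that of the others, so the tests of the later step share these values and are not wholly independent of the choice.

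Ethylene-responsive transcription factors (ERFs) are plant proteins with an AP2/ERF DNA-binding domain. In Arabidopsis, ethylene binds receptors that hold the pathway off in its absence, the signal reaches the transcription factor EIN3 and its relatives, and these switch on ERF genes, whose products bind GCC-box sequences in target promoters and activate or repress them. ERFs form a large family, and many members respond to wounding, drought, cold or pathogens rather than to ethylene. Durian is a climacteric fruit, one whose ripening is accompanied by a burst of ethylene and respiration, and ERFs of other climacteric fruits such as tomato, banana and apple have been tied to softening, aroma and colour. The sources used here give these 5 genes no subfamily and no target, so they are called by their locus numbers.

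Pulp of durian (Durio zibethinus) var. D24 was taken 90 days after anthesis from young fruits (YS), at 120 days from mature fruits (MS) and at 127 days from ripening fruits (RS). Each stage had 3 libraries of this 1 clonal cultivar, without treatment. RS pulp came from mature fruits that ripened at room temperature after harvest, so the age of the fruit, its removal from the tree and its ripening cannot be told apart between MS and RS. The study describes the libraries of a stage as biological triplicates of pulp freed from husk and seeds, and the number of fruits or trees behind a library is not given in the sources used here. Values are FPKM, fragments per kilobase of gene scaled to the mapped fragments of a library, which corrects for gene length and depth.

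The libraries of the 3 stages differed in how well they matched each other. Mapped bases ranged from 2350 to 3553 Mb. Among genes with a mean FPKM of 10 or more, the SD of the log2 ratio between libraries was 0.132 to 0.153 within MS, 1.06 to 1.45 within YS, and 0.158 between RS libraries 1 and 2. It was 0.772 and 0.781 between these and RS library 3, where 15171 genes reached an FPKM of 1, against 19614 and 19471, and in which 10 genes took 26.3% of all FPKM against 8.34% and 8.74%. Over all genes the median log2 fold change to RS was -0.35 from YS and -0.40 from MS, against 0.06 from YS to MS, and dividing each library by its size factor (0.484 for RS library 3, 1.02 to 1.18 for the others) took this shift away. LOC111311521, a polygalacturonase, one of the pectin-degrading enzymes of fruit softening, lay between 0.0748 and 0.129 FPKM in YS, 1.26 and 1.89 in MS, and 41.2 and 1341 in RS, in the order of the stage labels.

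The genes lie on 5 different scaffolds of the genome used by the authors, each given as a scaffold with its first and last base. LOC111280307 spans 2879 bases of the plus strand of NW_019168037.1, from 3749840 to 3752718. LOC111292116 spans 824 bases of the minus strand of NW_019168470.1, from 1635731 to 1636554, and a gene table of another durian assembly classes it as a pseudogene while it classes the other 4 as protein-coding. LOC111290490 spans 988 bases of the plus strand of NW_019168381.1, from 25871908 to 25872895. LOC111306880 spans 1386 bases of the plus strand of NW_019167904.1, from 19598785 to 19600170, and LOC111314102 spans 1528 bases of the minus strand of NW_019167938.1, from 4258269 to 4259796. LOC111314102 lies wholly inside LOC111314104, a gene of the same strand at 53.2 ± 14.2, 64.6 ± 2.40 and 55.8 ± 25.9 FPKM in YS, MS and RS (SD, n = 3), so reads of the overlap can belong to either gene.

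**Figure D1:**
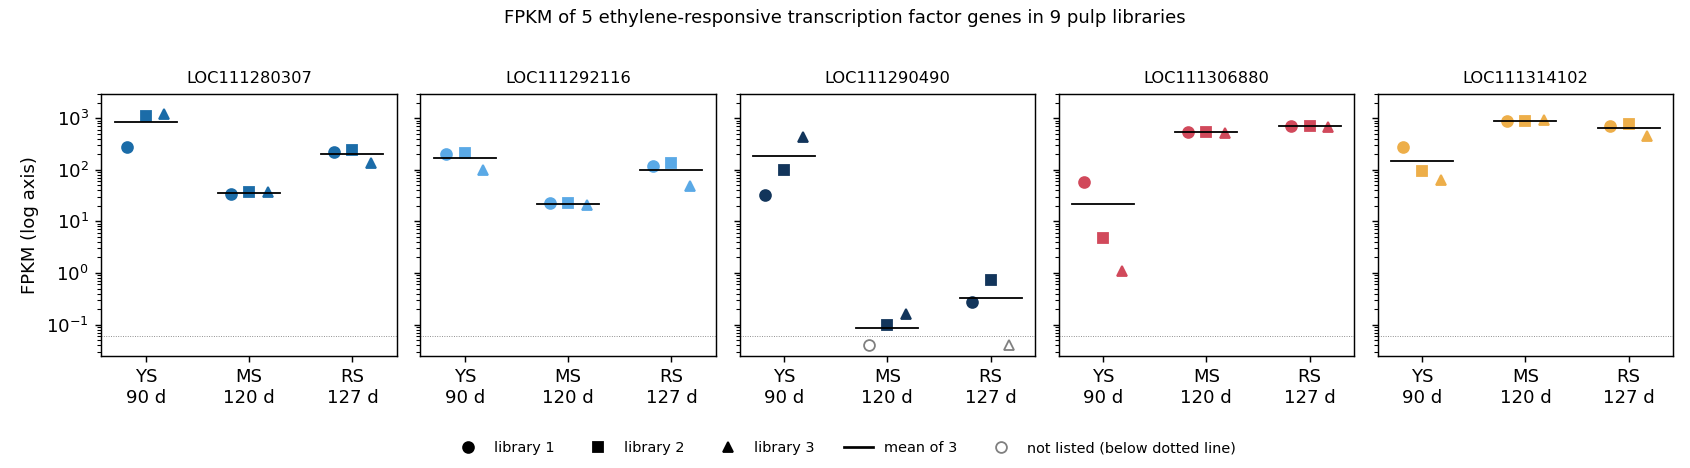
FPKM on a log axis of the 5 genes in each of the 9 libraries, with 1 panel a gene, 1 symbol a library number and a black line at the mean of the 3 libraries of a stage. Open grey symbols below the dotted line are libraries whose table does not list the gene. LOC111280307 and LOC111292116 have their lowest 3 libraries in MS, LOC111290490 is above 1 FPKM in YS libraries alone, and LOC111306880 and LOC111314102 have their lowest 3 libraries in YS.

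Among the genes high in young pulp, LOC111280307 had the highest mean of all 50 ERF genes in YS and ranked 48 among the 21598 genes tested. It stood at 277, 1087 and 1212 FPKM in YS libraries 1, 2 and 3, at 34.7, 36.9 and 37.4 in MS, and at 223, 239 and 137 in RS. The stages did not overlap, with every YS library above every RS library and every RS library above every MS library, but YS and RS overlapped after division by size factors, where YS library 1 stood at 260 rescaled FPKM and RS library 3 at 283. The YS mean of 859 ± 507 FPKM (SD, n = 3) was 23.6-fold the MS mean of 36.3 ± 1.46 and 4.30-fold the RS mean of 199.6 ± 54.8. On the log2(FPKM + 1) scale the differences from YS were -4.26 (SE 0.55) at MS and -1.88 (SE 0.57) at RS, and without YS library 1 they were -4.94 and -2.56.

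From MS to RS, LOC111280307 rose 5.49-fold. Its log2 fold change was 2.39 (SE 0.23, n = 3 and 3, limma adjusted p = 0.000523), higher than that of 98.3% of the genes tested, and 4.0% of all genes tested rose by this rule (a log2 fold change beyond 1.5 with an adjusted p under 0.05). The MS libraries were nearly identical over all genes, and the separate fruits behind them, if any, are not labelled. A further fit counted the mean of the MS libraries as a single sample (the single-sample MS fit). Its spread came from the YS and RS libraries alone, since 1 MS sample has none. The change was the same there, with an SE of 0.80, and it was not called. Without RS library 3 the log2 fold change was 2.63.

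LOC111292116 showed the same order of stages at a lower level. It stood at 205, 211 and 99.3 FPKM in YS, at 22.3, 22.5 and 20.5 in MS, and at 117, 138 and 48.8 in RS. Its libraries in YS and RS overlapped, since YS library 3 lay below RS libraries 1 and 2, while every MS library lay below all others. The YS mean of 171.9 ± 63.0 FPKM (SD, n = 3) was 7.90-fold the MS mean of 21.8 ± 1.14 and 1.70-fold the RS mean of 101.0 ± 46.5. The log2 differences from YS were -2.85 (SE 0.31) at MS and -0.81 (SE 0.49) at RS, and the difference at RS was -0.36 without RS library 3.

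LOC111292116 also rose from MS to RS, 4.64-fold, with a log2 fold change of 2.04 (SE 0.37, limma adjusted p = 0.00713) that was higher than that of 97.6% of the genes tested. In the single-sample MS fit the adjusted p was 0.237. Without RS library 3, the lowest RS library for this gene, the log2 fold change was 2.49. The size-factor scaling brought the 3 RS libraries of both rising genes closer together, to 112, 134 and 101 rescaled FPKM for LOC111292116 and 214, 233 and 283 for LOC111280307, and gave log2 fold changes of 2.57 and 2.93.

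LOC111290490 was read in every young library, with a wide spread, and was close to absent elsewhere. It stood at 33.0, 101 and 427 FPKM in YS libraries 1, 2 and 3, and its mean of 187 ± 211 (SD, n = 3) was number 2 of the 50 ERF genes there. The MS tables gave 0.0980 and 0.158 FPKM in libraries 2 and 3 and did not list it in library 1. The RS tables gave 0.274 and 0.727 FPKM in libraries 1 and 2 and did not list it in library 3. All YS libraries therefore lay far above all others, and MS and RS overlapped.

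The depth behind the low values of LOC111290490 was a few reads. Coverage times the span of the gene, an upper limit to its aligned bases, came to 259 and 472 bases in MS and to 745 and 1876 bases in RS, where 1 read pair gives 300 bases, against 85352 to 1497977 bases in YS. No fold is given for it, since MS lay under the 900 bases of 3 read pairs. On the log2(FPKM + 1) scale the differences from YS were -6.72 (SE 0.83) at MS and -6.46 (SE 0.74) at RS, and they hung on the added constant, with -9.35 and -8.49 when 0.1 was added and -4.57 and -4.50 when 5 was added. From MS to RS its change of 0.26 (SE 0.20, limma adjusted p = 0.318) was not called. Without RS library 3, where the gene was not listed, it was 0.45 (SE 0.14, adjusted p = 0.0194), also under the size of 1.5, from values of a few read pairs.

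Of the genes that were higher in mature pulp, LOC111306880 had the widest range. It stood at 58.8, 4.73 and 1.09 FPKM in YS libraries 1, 2 and 3, at 534, 552 and 524 in MS, and at 715, 696 and 682 in RS. The stages did not overlap, and the YS libraries were spread over more than 1 order of magnitude while those of MS and RS lay close together. The MS mean of 536 ± 14.1 FPKM (SD, n = 3) was 24.9-fold the YS mean of 21.5 ± 32.3, and the RS mean of 697 ± 16.5 was 32.4-fold. The log2 differences from YS were 5.91 (SE 1.11) at MS and 6.29 (SE 0.92) at RS, and over the libraries left out in turn they ran from 4.86 to 7.28 and from 5.24 to 7.66. By mean FPKM it ranked 24 among the 50 ERF genes in YS, 2 in MS and 1 in RS.

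The further step of LOC111306880 from MS to RS was small and was not called. It was 1.30-fold, with a log2 fold change of 0.38 (SE 0.10, limma adjusted p = 0.0289), under the size of 1.5 that the call required. The single-sample MS fit gave an adjusted p of 0.915, and with any 1 MS library left out it was 0.116 to 0.142, while without RS library 3 the log2 fold change was 0.39 (SE 0.04, adjusted p = 3.23e-05). RS library 3 stood with the others in FPKM and apart from them after size-factor scaling, at 1410 rescaled FPKM against 687 and 679, and the log2 fold change was then 0.93 (adjusted p = 0.0516).

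LOC111314102 was the highest of the 50 ERF genes in MS and ranked 49 among all genes tested there. It stood at 283, 95.1 and 63.4 FPKM in YS, at 878, 900.3 and 927 in MS, and at 713, 773 and 455 in RS. In FPKM the stages did not overlap, with MS above RS and RS above YS. After division by size factors MS and RS overlapped, at 746, 767 and 787 rescaled FPKM in MS against 685, 754 and 941 in RS. The MS mean of 902 ± 24.5 FPKM (SD, n = 3) was 6.13-fold the YS mean of 147 ± 119, and the RS mean of 647 ± 169 was 4.40-fold. The log2 differences from YS were 2.90 (SE 0.52) at MS and 2.39 (SE 0.54) at RS, and without YS library 1, the highest YS library, they were 3.52 and 3.00.

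From MS to RS the log2 change of LOC111314102 was -0.52 (SE 0.20, limma adjusted p = 0.0847), which was not called, and its sign hung on the scaling, with 0.04 (SE 0.21) after division by size factors. RS library 3 lay lowest in FPKM, at 455, and highest after scaling, at 941 rescaled FPKM against 685 and 754. Without RS library 3 the log2 change was -0.28 (SE 0.05, adjusted p = 0.000749).

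Across the tested step, 2 of the 5 genes rose, against 4.0% of all genes tested. None of the 5 fell by the rule in limma, against 5.29% (LOC111314102 was lower at an unadjusted p of 0.0375). LOC111290490 could not have been called as a fall, since its MS mean of 0.0854 FPKM is too low for a fall of the required size. Only its YS libraries, which chose it, reached the FPKM of the filter, so its absence from the falls carries no information. For 4 of 5 genes the MS and RS libraries did not overlap. By comparison, 61.1% of all genes tested did not overlap between MS and RS, where the MS libraries lay so close together, so the lack of overlap is near what genes in general showed. In bulk pulp, fewer cells that express a gene and less of its RNA per cell cannot be told apart. Markers of seed, husk or green tissue were not analysed here.

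**Figure D2:**
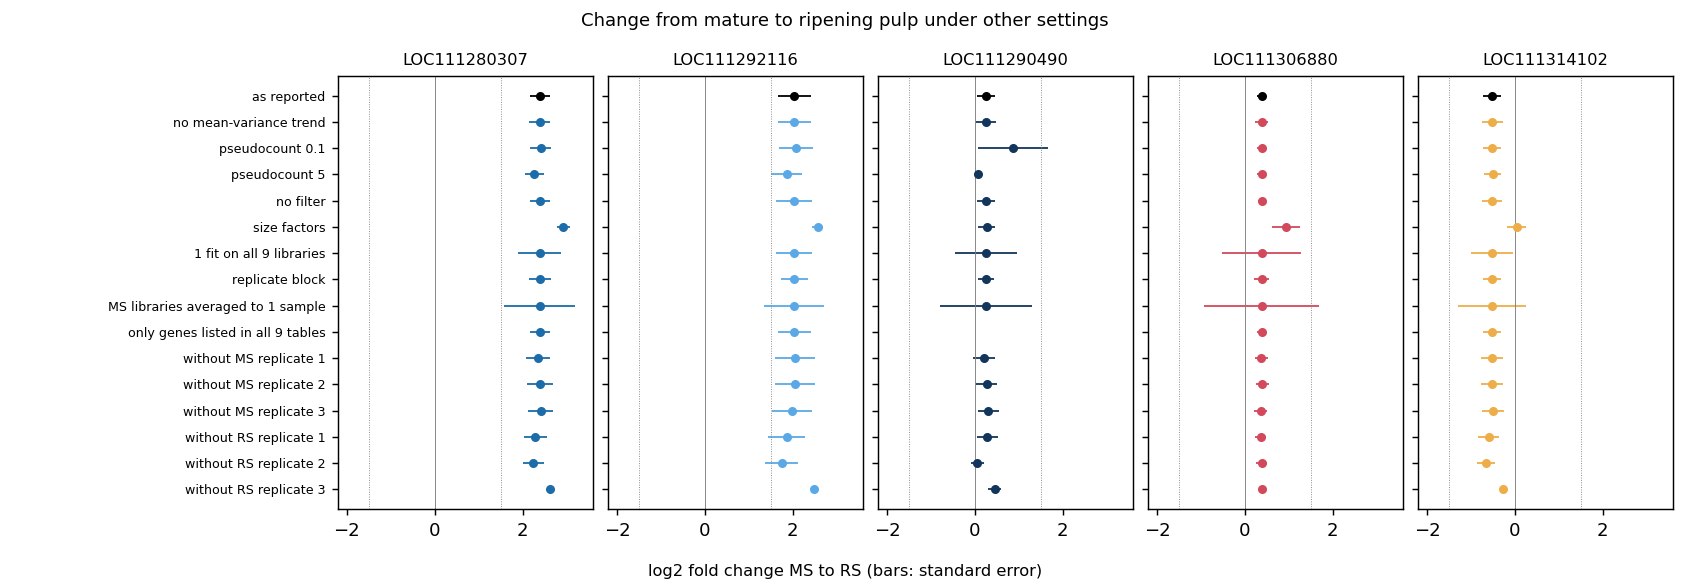
Log2 fold change from MS to RS of the 5 genes, as reported (black) and under each other setting (coloured), with bars of 1 standard error and dotted lines at 1.5 in either direction. LOC111280307 and LOC111292116 lie above 1.5 in every row, their bars widen in the single-sample MS fit (MS libraries averaged), and LOC111314102 lies below 0 except with size factors.

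Ratios between genes of 1 library do not depend on how that library was scaled, and they were computed after the values were seen. LOC111314102 stood at 1.65, 1.63 and 1.77 times LOC111306880 in MS and at 0.997, 1.11 and 0.667 times in RS, with no overlap, against 4.81, 20.1 and 58.0 in YS. The order of this pair thus went from LOC111314102 far above in YS to a ratio on either side of 1 in RS. LOC111280307 stood at 0.0650 to 0.0714 times LOC111306880 in MS and at 0.201 to 0.344 times in RS, so that the rise of LOC111280307 was the larger one within each library too.

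The 5 genes made up most of the summed FPKM of the 50 ERF genes in mature and ripening pulp. YS and MS values entered the choice of the 5 genes, so their shares there are a description. The 5 genes held 35.5%, 44.3% and 53.1% of this sum in YS libraries 1, 2 and 3. They held 83.3% to 84.0% in MS, and 77.9%, 77.6% and 88.2% in RS. In MS, LOC111314102 alone held 49.8% to 51.6% and LOC111306880 held 29.2% to 30.6%. In RS the shares were 30.3% to 32.5% for LOC111314102, 29.3% to 45.5% for LOC111306880 and 9.14% to 10.1% for LOC111280307. The summed FPKM itself averaged 3064 in YS, 1787 in MS and 2048 in RS, so that the higher share in MS came with a lower sum of these 50 genes.

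**Figure D3:**
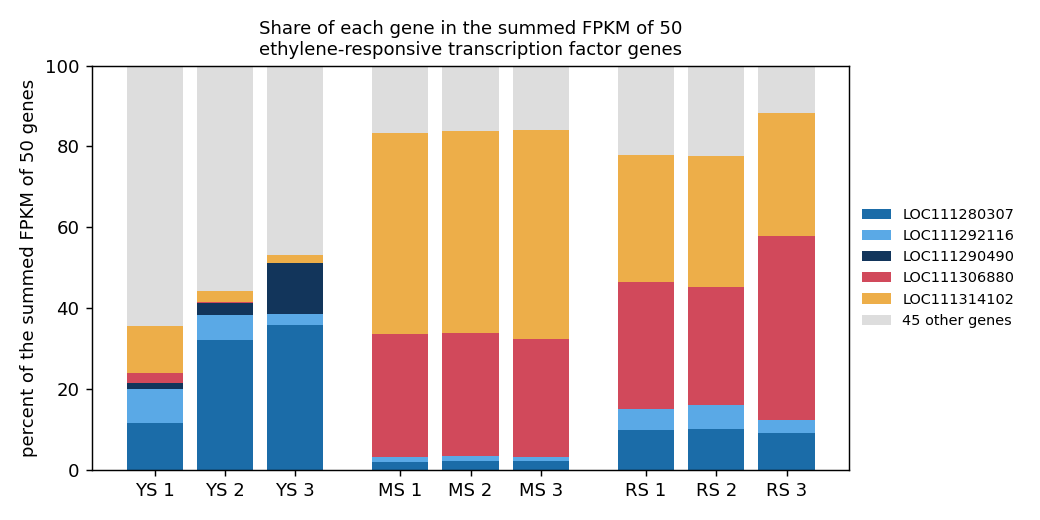
Percent of the summed FPKM of 50 ERF genes held by each of the 5 genes (colours) and by the 45 others (grey), with 1 bar a library. The others hold most of the bar in YS libraries 1 and 2, and LOC111306880 and LOC111314102 hold most of it in all MS and RS libraries.

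YS library 1 was the young library nearest to mature pulp, over all genes and in most of these genes. Its root mean square log2 distance to the MS mean was 1.19, against 1.39 and 1.48 for YS libraries 2 and 3. It had the lowest YS value of LOC111280307 (277 FPKM) and LOC111290490 (33.0) and the highest of LOC111306880 (58.8) and LOC111314102 (283). LOC111292116 was the exception, lowest in YS library 3 (99.3 FPKM). What sets YS library 1 apart was not tested.

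Over the 9 libraries the correlations between the genes rest on the YS and MS values that chose them, so their signs were largely set by the choice. Pearson's r of log2(FPKM + 1) was 0.97 between LOC111306880 and LOC111314102, and -0.98 and -0.96 between LOC111290490 and these genes. LOC111280307 and LOC111292116 correlated at 0.86, and LOC111292116 and LOC111290490 at 0.63. These are descriptions over 9 points that share 3 stages, and the difference between stages alone makes such values high.

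The genes whose pattern was most like each of the 5, by Pearson's r over the 9 libraries among all genes tested, were mostly without a name in the sources used here. LOC111288768 followed LOC111280307 (r = 0.993) at 478 ± 278, 7.04 ± 0.371 and 72.5 ± 31.1 FPKM in YS, MS and RS (SD, n = 3), with LOC111304675 (0.992) and LOC111304896 (0.987) next. LOC111311991 (0.997), LOC111274959 (0.993) and LOC111317934 (0.985) followed LOC111292116, and LOC111274959 had about its level too, at 181 ± 75.1, 28.7 ± 1.52 and 116 ± 57.7 FPKM. LOC111279011 (0.998), LOC111303526 (0.998, named heavy metal-associated) and LOC111294411 (0.997) followed LOC111290490 and lay on average at 0.130 FPKM or less in MS and RS. Such company was common, with 455 genes above an r of 0.95 for LOC111290490 and 121 to 201 for each of the others.

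Of the genes nearest to the pattern of LOC111306880, LOC111274805 (r = 0.998) stood at 67.8 ± 21.9, 140 ± 4.70 and 145 ± 3.12 FPKM, a much smaller difference between stages. LOC111306660 (0.994) and LOC111275015 (0.994) came next, the last at 55.6 ± 44.9, 446 ± 7.97 and 476 ± 62.8 FPKM. LOC111282609 (0.995), whose name begins with probable xyloglucan and is cut short in the source, followed LOC111314102 at 51.6 ± 64.2, 480 ± 3.91 and 259 ± 82.0 FPKM, before LOC111277359 (0.993) and LOC111313479 (0.993). A high r thus marked a like course over the libraries and not a like size of the difference.

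Of the 10 genes next to these 5 on the scaffolds, 4 were close to 0 in every stage and 6 passed the filter for testing. LOC111280798 and LOC111281171, at 9.81 and 5.46 kb from LOC111280307, averaged under 0.1 FPKM in every stage. LOC111292693, at 10.5 kb from LOC111292116, averaged at most 0.0286 FPKM, and LOC111291731, at 7.51 kb on the other side, went the opposite way from MS to RS (28.6 ± 1.53 to 8.37 ± 6.14 FPKM, log2 fold change -2.02, limma adjusted p = 0.0444). LOC111306879 and LOC111307479, at 3.63 and 18.3 kb from LOC111306880, averaged between 5.11 and 14.9 FPKM. On the higher side of LOC111314102, LOC111314103 averaged at most 0.0127 FPKM, and on the lower side LOC111314101 had 65.3 ± 46.3, 94.6 ± 1.42 and 66.8 ± 32.8 FPKM in YS, MS and RS.

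Both genes next to LOC111290490 were expressed, as were both next to LOC111306880. LOC111289246 starts 496 bases away on the other strand and had 13.3 ± 1.32, 9.48 ± 0.274 and 8.03 ± 1.19 FPKM in YS, MS and RS. LOC111289891, at 1.88 kb on the same strand, had 22.8 ± 13.9, 9.11 ± 0.304 and 2.91 ± 1.67 FPKM and fell from YS to RS (log2 fold change -2.50, limma adjusted p = 0.0115). A further ERF gene, LOC111291204, lies 29.6 kb away on the other strand at 37.9 ± 54.0, 2.54 ± 0.0625 and 8.75 ± 5.28 FPKM, and passed no test. It was named after its values were seen.

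The other ERF genes were mostly highest in young pulp as well. The list was taken from the study, which chose it on these samples, so its direction is not independent evidence. Of the 45 other genes 40 were tested, and from YS to MS 28 fell (70.0%, against 10.2% of all genes tested) and 2 rose (5.0%, against 5.42%), with a median log2 fold change of -2.35 against 0.06. From YS to RS 24 fell (60.0%, against 9.67%) and 1 rose (2.50%, against 3.0%), with a median of -2.10 against -0.35. From MS to RS 4 of the 40 rose (10%, against 4.0%) and 3 fell (7.50%, against 5.29%), with a median of 0.20 against -0.40. In the single-sample MS fit, 10 of the 40 were lower and 1 was higher in MS than in YS by the call rule, and none was called from MS to RS in limma, where 5 genes of the 46 the study lists under ethylene response were higher and 1 was lower at an unadjusted p under 0.05. Without RS library 3, 11 of the 40 fell from YS to RS, against 1035 of all 21598 genes tested. From MS to RS 10 of the 40 then rose, against 1310 of all genes tested. Size factors gave 8 rises and 2 falls for MS to RS. Over all genes they gave 1419 rises and 471 falls in place of 863 and 1142. MS was the stage of the lowest mean for 26 of the 40 (65.0%), against 24.6% of all genes tested. It was so too for LOC111280307, LOC111292116 and, on values of a few read pairs, LOC111290490.

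Few of these ERF genes went the way of LOC111306880 and LOC111314102. LOC111299480 rose from YS to MS (4.19 ± 3.89 to 61.1 ± 1.22 FPKM, log2 fold change 3.90, adjusted p = 0.00284) and, unlike LOC111306880 and LOC111314102, fell again to 4.60 ± 2.90 FPKM in RS (-3.66, adjusted p = 0.00151). LOC111306123 had a course like that of LOC111306880 at a lower level, with 7.39 ± 6.93, 28.2 ± 0.354 and 37.6 ± 6.52 FPKM, and it rose from YS to MS (2.11, adjusted p = 0.0179) and from YS to RS (2.49, adjusted p = 0.00869). LOC111306880 averaged 697 FPKM in RS, far above LOC111306123.

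The ERF genes with the largest falls from YS were at lower levels than LOC111280307. LOC111315585 went from 117 ± 65.8 FPKM to 2.30 ± 0.168 in MS and 3.35 ± 2.33 in RS (log2 fold changes -4.95 and -4.75). LOC111315804 had 37.8 ± 40.2, 0.228 ± 0.312 and 0.558 ± 0.600 FPKM (-4.41 and -4.10), a course close to that of LOC111290490. LOC111299257 fell from 136 ± 137 to 4.25 ± 0.248 FPKM in MS (-4.06), and LOC111304137 from 18.9 ± 12.7 to 0.237 ± 0.0937 in RS (-3.70). The adjusted p-values of these 6 changes in limma lay between 0.00074 and 0.00923.

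LOC111280307 and LOC111292116 were not alone in being higher in RS than in MS. LOC111290879 went from 135 ± 16.7 FPKM in YS to 8.76 ± 0.428 in MS and 91.2 ± 48.3 in RS, and its log2 fold change from MS to RS of 3.05 (adjusted p = 0.00313) was above those of LOC111280307 and LOC111292116. LOC111276899, named ERF 2-like, rose by 1.91 (adjusted p = 0.0152) to 34.3 ± 17.5 FPKM, and LOC111291396, named ERF061, by 1.89 (adjusted p = 0.000785) to 3.27 ± 0.831 FPKM. LOC111299988, outside the 46 genes listed under ethylene response, rose by 2.26 (adjusted p = 0.00501), from 0 FPKM in MS to 4.24 ± 2.37 in RS. It was named after its values were seen and is not among the changes counted below. LOC111285645 fell from 18.8 ± 0.872 to 4.49 ± 1.86 FPKM (-1.92, adjusted p = 0.00364, but -1.45 and not called with size factors), and LOC111304137 fell further from 3.19 ± 0.110 FPKM (-1.76, adjusted p = 0.000389).

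**Figure D4:**
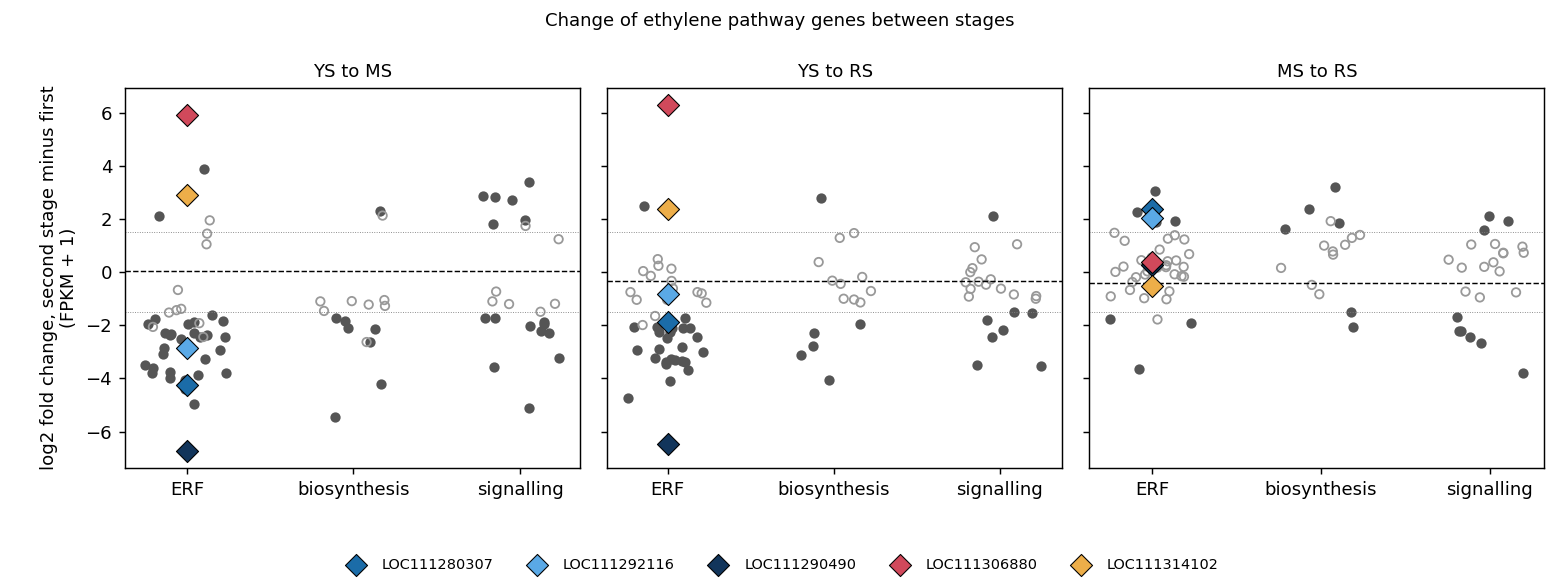
Log2 fold change on the log2(FPKM + 1) scale between each pair of stages for the tested ERF, ethylene biosynthesis and ethylene signalling genes. Diamonds are the 5 genes, circles the others, filled where called, dotted lines mark 1.5 and the dashed line is the median of all genes tested. LOC111306880 lies highest (5.91 and 6.29) and LOC111290490 lowest (-6.72 and -6.46) of the plotted genes in the comparisons with YS, and LOC111280307 and LOC111292116 lie among the called genes from MS to RS.

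The study's lists under ethylene biosynthesis and signalling, also chosen on these samples, held genes called in both directions. The biosynthesis list also holds S-adenosylmethionine decarboxylases and a carrier, which do not make ethylene. Of 16 biosynthesis genes tested, 7 fell (43.8%, against 10.2% of all genes tested) and 1 rose (6.25%, against 5.42%) from YS to MS. From YS to RS 5 fell (31.2%, against 9.67%) and 1 rose (6.25%, against 3.0%). MS to RS had 4 rises and 2 falls, where 4.0% and 5.29% of all genes tested rose and fell. With size factors these were 7 and 1, where 1419 and 471 of all 21598 genes tested rose and fell. Without RS library 3 they were 7 and 0, against 1310 and 630 of all genes tested. Of these 4 rises 3 were decarboxylases (LOC111286226, LOC111287069 and LOC111318202) and 1 was LOC111314546, an oxidase that forms ethylene from its direct precursor. In the single-sample MS fit 3 biosynthesis genes were called from YS to MS, all as falls, and none from MS to RS. LOC111318202, an S-adenosylmethionine decarboxylase, which draws the ethylene precursor S-adenosylmethionine into polyamine synthesis, had the course of LOC111280307 at a smaller amplitude. It stood at 391 ± 51.7, 61.9 ± 2.46 and 198 ± 46.9 FPKM, with a log2 fold change from MS to RS of 1.63 (adjusted p = 0.00153). LOC111279193, S-adenosylmethionine synthase 2, which makes that precursor, fell from 579 ± 317 to 10.4 ± 0.675 FPKM from YS to MS (-5.45, adjusted p = 0.000571) and stood at 29.5 ± 5.83 in RS. LOC111282309, a further decarboxylase, fell from 186 ± 28.6 to 54.9 ± 2.11 FPKM from YS to MS (-1.73, adjusted p = 0.00112) and stood at 147 ± 64.9 in RS.

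Of 23 signalling genes tested, 10 fell (43.5%, against 10.2% of all genes tested) and 6 rose (26.1%, against 5.42%) from YS to MS. Fewer of each were called in the single-sample MS fit. From YS to RS 7 fell (30.4%, against 9.67%) and 1 rose (4.35%, against 3.0%). MS to RS had 6 falls and 3 rises, where 5.29% and 4.0% of all genes tested fell and rose. With size factors these were 5 and 4, where 471 and 1419 of all 21598 genes tested fell and rose. LOC111306700 and LOC111279153, both named ethylene receptor 2-like, had a single peak at MS. LOC111306700 stood at 46.8 ± 11.7, 330 ± 1.94 and 62.1 ± 38.0 FPKM and LOC111279153 at 25.5 ± 11.3, 258 ± 2.64 and 19.4 ± 8.79, with log2 fold changes from MS to RS of -2.68 (adjusted p = 0.011) and -3.78 (adjusted p = 0.000463). LOC111306880 and LOC111314102 were also higher in MS than in YS but were not called as lower in RS. LOC111284718, mitogen-activated protein kinase 3, a kinase of stress signalling, had the opposite course, with 289 ± 74.0, 56.8 ± 2.19 and 221 ± 29.0 FPKM and a rise from MS to RS of 1.93 (adjusted p = 0.000223), close to those of LOC111280307 and LOC111292116. Of the 10 changes from MS to RS called in these named ERF and pathway genes, 1 was still called in the single-sample MS fit, that of LOC111279153 (adjusted p = 0.0308). Of the 11 called from YS to MS 7 were still called there, and those of LOC111306123 (adjusted p = 0.129), LOC111299257 (0.104), LOC111282309 (0.136) and LOC111306700 (0.063) were not.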

How the data were processed

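Poly(A) RNA of 9 pulp libraries, 3 each of YS, MS and RS, was sequenced as paired reads of 150 bases. The authors made the deposited tables with StringTie. The FPKM that the authors deposited count fragments by gene length and by the mapped total of the library, and the deposited coverage (signal) is the mean read depth per base. The deposited TPM, treated as a score because its sum over genes is not fixed, was not used. The paper names CLC, TopHat and HISAT2 for mapping, with HISAT2 before StringTie, and the submitters' processing notes name FastQC, Trimmomatic, Bowtie and TopHat, so the mapper behind the values is unclear. The genome build and the strand setting are not given in the sources used here, so reads of antisense genes cannot be told apart.

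A gene was tested where 3 of the 9 libraries or more reached an FPKM of 1 (21598 genes), with 0 taken for any unlisted value. Each pair of stages was fitted on its 6 libraries with limma 3.58.1 in R 4.3.3, with a mean-variance trend, on log2(FPKM + 1), where a fold change understates that of low genes. The Benjamini-Hochberg adjustment ran over all tested genes, and a gene was called at a log2 fold change beyond 1.5 and an adjusted p under 0.05. With 3 libraries against 3, an exact permutation test cannot go below 0.1, so p-values rest on the spread that limma pools over genes. They cover only the spread between these libraries. Python 3.11.15 was used with pandas 2.3.3 and NumPy 2.4.6 for tables and with Matplotlib 3.10.9 for figures.

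The 5 genes, the lists and the tests were chosen with earlier results of these data known. Names and lists were taken from the paper's tables. Besides the 5 genes, the 3 largest rises and falls called in each comparison were named among the 46 ERF genes listed under ethylene response. Of the biosynthesis and signalling lists, the 3 called genes with the highest mean FPKM were named. Also named were the 3 genes most like each of the 5 by Pearson's r, and the nearest gene on each side. Family members by protein sequence and markers of other tissues were not analysed here. Alternatives were other added constants (0.1 and 5), no filter, only genes listed in all 9 tables, size factors (medians of ratios), 1 fit on all libraries, a replicate block, MS averaged to 1 sample, leaving out each library and, added after seeing the data, no mean-variance trend.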

Additional observations from a re-analysis of the deposited data

Results flagged for a closer look

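Loci that StringTie assembled on the strand opposite to 3 of the 5 genes lie outside the values used above and were present in 1 library each, with 1.27 FPKM opposite LOC111280307 in YS library 2, 2.19 FPKM opposite LOC111306880 in RS library 2 and 1.54 FPKM opposite LOC111314102 in MS library 2. Each is under 1% of the FPKM of the gene it faces in that library. No read counts are behind these values here.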

How the results depend on the processing

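Of 217 values of the 5 genes' log2 fold changes under other settings, 211 kept their direction and side of the threshold or moved by less than their spread, and none of the called values changed sign. LOC111314102, which was not called from MS to RS, went from -0.52 to 0.04 with size factors. LOC111280307 and LOC111292116 kept their log2 fold changes from MS to RS of 2.39 and 2.04 in the fit with MS averaged to a single sample. Their SEs were 0.80 and 0.68 instead of 0.23 and 0.37, and neither was called. That fit had 2 fewer MS samples, and its spread came from the YS and RS libraries alone. LOC111290490 moved with the added constant, to -9.35 (0.1) and -4.57 (5) from YS to MS and to -8.49 and -4.50 from YS to RS, and has no value among genes listed in all 9 tables. With each library left out in turn, the log2 fold change from MS to RS was 2.24 to 2.63 for LOC111280307, 1.75 to 2.49 for LOC111292116, 0.06 to 0.45 for LOC111290490, 0.36 to 0.40 for LOC111306880 and -0.66 to -0.28 for LOC111314102. 

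Over all tested genes, adding 0.1 gave 1793 rises from YS to MS, and 1295 rises and 2197 falls from MS to RS. Adding 5 gave 562 rises and 930 falls from YS to MS, 407 and 799 from YS to RS, and 451 and 409 from MS to RS. Without the filter 319 rose and 623 fell from YS to RS. With size factors 1052 rose from YS to RS (647 as reported), and the step from MS to RS had 1419 rises and 471 falls (863 and 1142 as reported). With MS averaged to 1 sample YS to MS had 361 rises and 814 falls, and MS to RS 153 and 88. With 1 library left out, rises and falls ran from 997 to 1468 and 1768 to 2574 from YS to MS, from 460 to 873 and 1035 to 2551 from YS to RS (1305 falls without YS library 2 and 1035 without RS library 3), and from 726 to 1310 and 630 to 1629 from MS to RS (1310 and 630 without RS library 3).

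For the 46 ERF genes the study lists under ethylene response, which include 4 of the 5 genes, the calls were 4 rises and 28 falls for YS to MS, 3 and 24 for YS to RS, and 5 and 3 for MS to RS. With MS averaged to 1 sample these were 2 and 11 from YS to MS, and 0 and 0 from MS to RS in limma, where 5 were higher and 1 lower at an unadjusted p under 0.05. Without the filter 0 rose and 5 fell from YS to RS, where 3 were higher and 26 lower at an unadjusted p under 0.05. For MS to RS there were 8 rises and 5 falls with 0.1 added, 1 fell with 5 added and 9 rose with size factors. With 1 library left out, rises and falls ran from 3 to 5 and 23 to 30 from YS to MS, from 2 to 3 and 10 to 24 from YS to RS (15 falls without YS library 2 and 10 without RS library 3), and from 4 to 11 and 3 to 4 from MS to RS (11 rises without RS library 3). The causes of these moves were not tested.

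Same-numbered libraries did not deviate together (r of -0.16 to 0.0797). These values cannot decide whether the numbers pair samples. The MS libraries were nearly identical, which leaves little deviation to compare. Between YS and RS, differently numbered libraries gave r of -0.153 to 0.178, a similar range. With a replicate block the values from MS to RS were 2.39 (adjusted p = 0.000446) for LOC111280307 and 2.04 (0.00248) for LOC111292116. Of the 5 genes, depth limits LOC111290490 most, in MS and RS, where a few read pairs decide its value.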
